A study of Mus musculus with 20 samples.

Results

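The 48 genes described here belong to translation initiation and elongation in the mouse. Most encode factors or their subunits, and 7 are named after the factors: methyltransferases of eEF1A, a read-through gene and a scaffold protein. They are the protein-coding genes of the mm10 annotation whose symbols start with Eif1, Eif2, Eif3, Eif5, Eif6, Eef1 or Eef2, out of 21887 protein-coding genes on chromosomes 1 to 19, X and Y. The eIF2 kinase genes, Eef2k, Eef2kmt and the Eif4 genes were left out. Peaks within 1 kb of either annotated end of each gene were read from 12 peak lists of hematopoietic stem cells (HSC), the cells that renew the blood, sorted from adult mice. WT control mice were Mx1-Cre-/-;mTORflox/flox. KO mice were Mx1-Cre+/-;mTORflox/flox, and KO MycHet mice were Mx1-Cre+/-;mTORflox/flox;c-Myc+/flox. All groups had been given poly(I:C), which turns on the Mx1 promoter that drives Cre. This promoter is active in many tissues and not in HSC alone, and the controls lacked Cre, so Cre itself and loss of Mtor cannot be told apart. ChIP-seq of H3K27ac, of H3K4me3 and of the transcription factor MYC had 1 WT and 1 KO library each. ATAC-seq, which maps open chromatin, had 2 WT, 2 KO and 2 KO MycHet libraries of 50000 cells each. RNA-seq samples, 4 of WT and 4 of KO mice, were not analysed here, so no transcript level stands beside the peaks.

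Protein synthesis starts when eIF2 brings the initiator tRNA to the small ribosomal subunit, with eIF1, eIF1A, eIF3 and eIF5 on the subunit, and eIF5B then joins the large subunit. The guanine nucleotide exchange factor eIF2B recharges eIF2 between rounds. During elongation eEF1A delivers aminoacyl-tRNA, eEF1B recharges eEF1A, and eEF2 moves the ribosome along the mRNA. Several of these mRNAs, with those of the ribosomal proteins, belong to the class that starts with a 5′ terminal oligopyrimidine (TOP) tract and whose translation the kinase mTOR controls. MYC is known to bind the promoters of many genes of protein synthesis, at the E-box CACGTG among other sites.

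Each list held the peaks of 1 library, between 8887 and 72186 of them. Peak scores are the authors' deposited caller values. None lay below 50, and their scale is not stated, so a score ranks peaks within its own list and differences between lists are a description. Read depth is unknown, and list length may vary with it. At the lower end of the targeted gene, Mtor (chr4:148448582), H3K27ac, H3K4me3, MYC and both ATAC WT libraries had a peak. No KO or KO MycHet library had one there, and removal of the floxed sequence and a closed end cannot be told apart from peaks. Of 12 HSC marker genes, 9, 9, 5, 12, 9 and 9 had an ATAC peak in WT libraries 1 and 2, KO libraries 1 and 2 and KO MycHet libraries 1 and 2. None of 5 T and NK cell markers had a peak in any library. Myeloid markers had 0 of 5 in library 1 of WT and of KO, and 2 to 4 of 5 in the other ATAC libraries. In the library order given for HSC markers, erythroid markers had 1, 5, 2, 5, 4 and 5 of 5. Megakaryocyte markers had 2, 4, 2, 3, 3 and 3 of 4. B cell markers had 1, 2, 0, 3, 1 and 2 of 4. Stromal and endothelial markers had 0, 3, 1, 3, 3 and 3 of 4. ATAC peaks were thus not confined to HSC markers. The sources used here do not say whether a library came from 1 mouse or from several.

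The initiation and elongation factor genes were a widely marked group in both genotypes. H3K4me3, the mark of active promoters, lay at 46 of 48 in WT and 45 of 48 in KO, beside 52.3% and 53.7% of all genes. H3K27ac, a mark of active promoters and enhancers, lay at 19 of 48 in WT and 43 of 48 in KO, beside 14.4% and 39.1% of all genes. MYC had a peak at 14 in WT and at 27 in KO, beside 10.2% and 22.1%. ATAC peaks lay at 43 (library 1) and 47 (library 2) members in WT, beside 44.2% and 65.4% of all genes. The KO counts were also 43 and 47, beside 44.1% and 65.0%, and each KO MycHet library had 47, beside 61.3% and 61.6%. In each of the 12 libraries the members' share was above that of all genes.

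**Figure D1:**
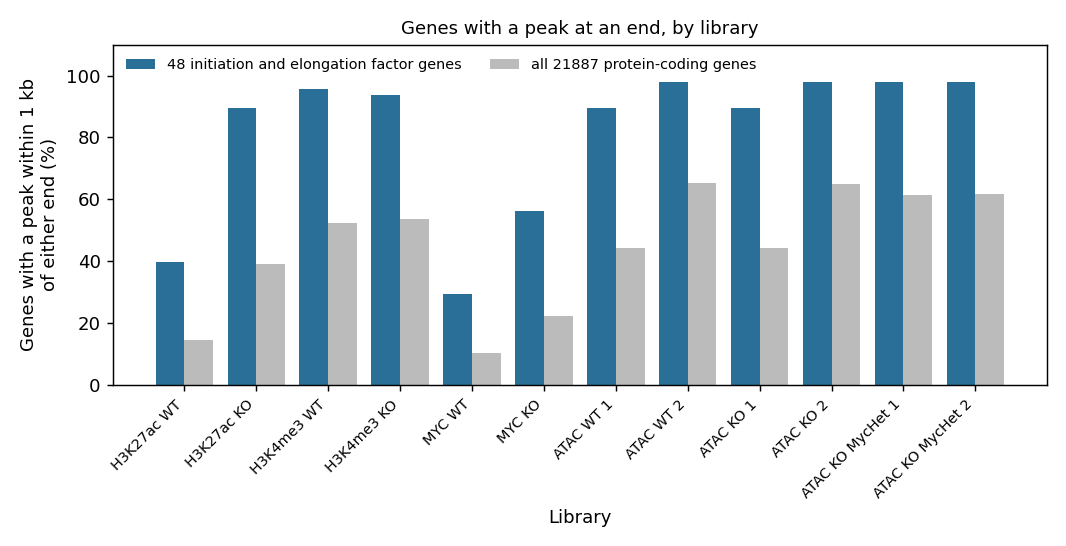
Share of genes with a peak within 1 kb of either end (vertical axis, percent) in each of the 12 libraries (horizontal axis), for the 48 factor genes (blue) and all 21887 protein-coding genes (grey). The blue bar is above the grey bar in every library, and it rises from 39.6% to 89.6% for H3K27ac and from 29.2% to 56.2% for MYC between the WT and the KO list.

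Every member but Eef1a2 had a peak in at least 1 library. Eef1a2 encodes the eEF1A form of muscle and neurons. Peaks in all 12 libraries were found at 7 genes: Eif1, Eif2s1, Eif2a, Eif3b, Eif5b, Eef1g and Eef2. These encode a start codon selection factor, the alpha subunit of eIF2, the eIF2-independent factor eIF2A, a subunit of eIF3, the subunit joining factor, a subunit of eEF1B and the translocation factor. Genes with a peak in all 12 were not counted over all genes, so the 7 are a list and are not read as an excess. At Eef2 the MYC peaks and the peak of ATAC KO library 1 lay only at the end near Dapk3, away from the start. At Eif2a the WT and KO MYC peaks did not overlap.

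**Figure D2:**
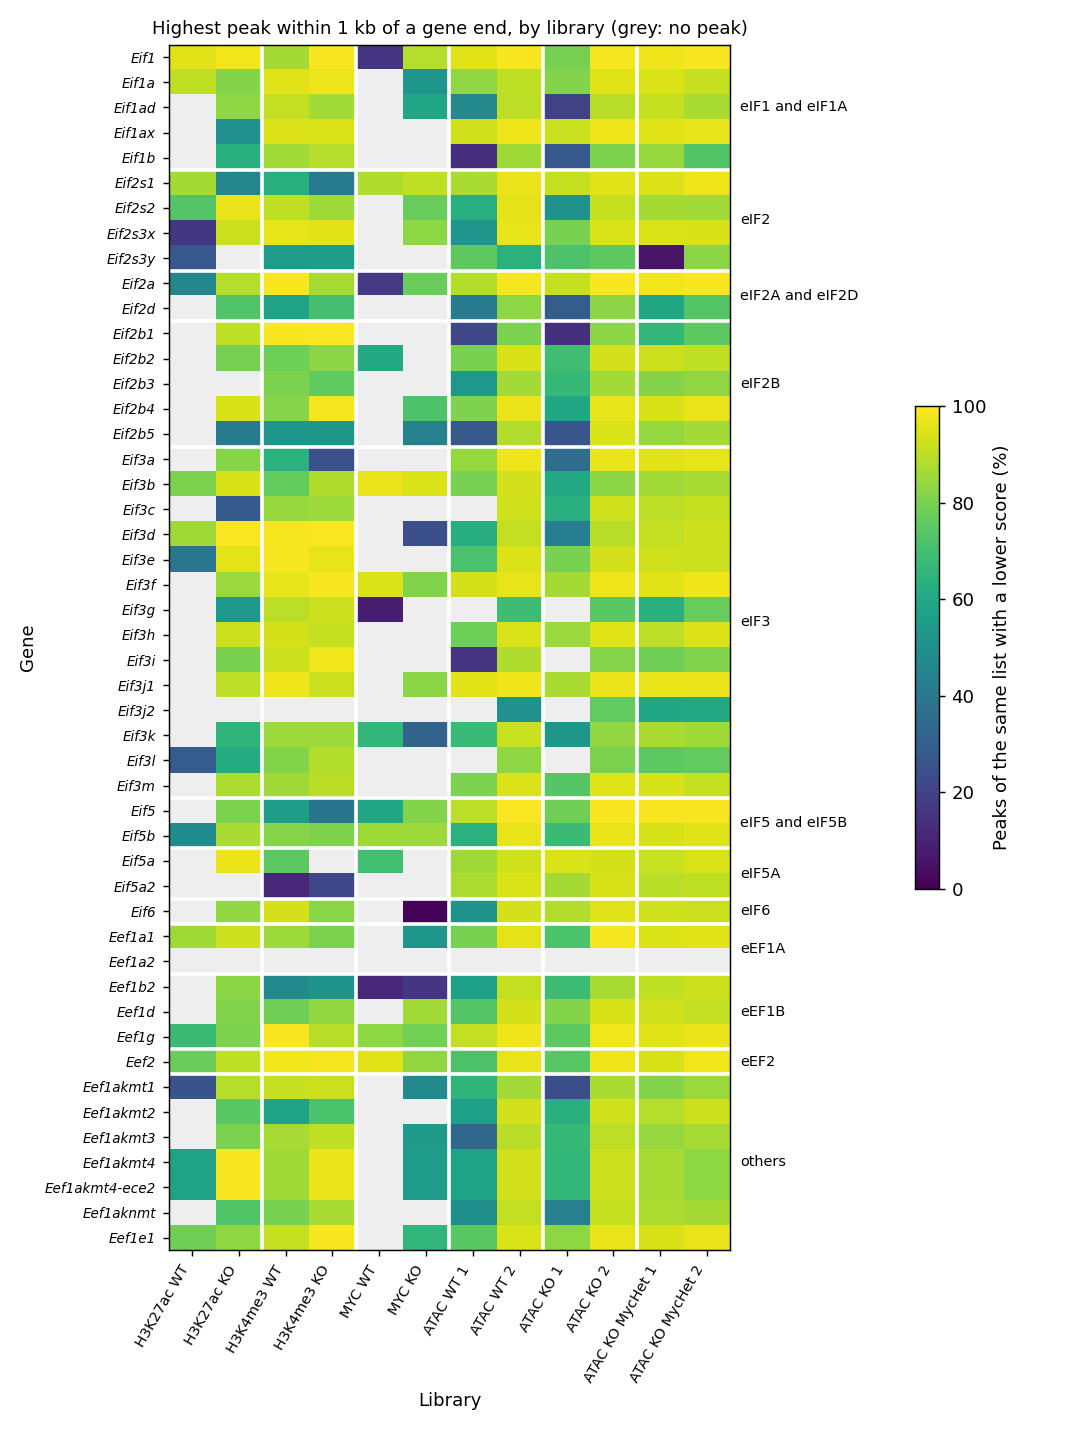
Each row is a factor gene, grouped by complex (named at the right), and each column a library. The colour gives the percent of peaks in the same list that score lower than the gene's highest peak, and grey means no peak. The H3K4me3 columns are filled but for Eef1a2, Eif3j2 and, in KO, Eif5a, and the WT columns of MYC and H3K27ac are the emptiest, with 14 and 19 genes.

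MYC peaks were called in both genotypes at 11 members, in KO alone (KO only) at 16 and in WT alone (WT only) at 3. Over all genes these classes held 7.84%, 14.2% and 2.33%. The members in both were Eif1, Eif2s1, Eif2a, Eif3b, Eif3f, Eif3k, Eif5, Eif5b, Eef1b2, Eef1g and Eef2. Those in KO only were Eif1a, Eif1ad, Eif2s2, Eif2s3x, Eif2b4, Eif2b5, Eif3d, Eif3j1, Eif6, Eef1a1, Eef1d, Eef1e1, Eef1akmt1, Eef1akmt3, Eef1akmt4 and its read-through transcript Eef1akmt4-ece2, which shares its start and its peaks. Those in WT only were Eif2b2, Eif3g and Eif5a. There were 22161 MYC peaks in the KO list and 8887 in the WT list. When the KO list was shortened to its 8887 highest peaks, 6 members were KO only, 5 were WT only and 9 were in both, beside 5.66%, 4.5% and 5.67% of all genes. The KO-only count thus moved with the number of peaks in the list, and with 1 library per genotype no test between genotypes could be made. In sorted bulk cells, more cells with a peak and more signal per cell cannot be told apart. Erythroid markers had 0 of 5 MYC peaks in WT and 2 in KO, megakaryocyte markers 3 of 4 and 1, HSC markers 1 and 3 of 12, stromal and endothelial markers 0 and 1 of 4, and myeloid, B cell and T and NK markers 0 in both; their part in the result was not tested.

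Since most members had H3K4me3 and most genes did not, the counts were also read against the 11113 genes with H3K4me3 in both genotypes. Of the 45 members among them, MYC was shared at 11, KO only at 16 and WT only at 2, beside 14.5%, 24.8% and 3.71% of these genes. H3K27ac was shared at 18, KO only at 24 and WT only at 1, beside 25.8%, 46.7% and 0.882%. The members' shares for MYC in both and in KO only, 24.4% and 35.6%, and for H3K27ac in both, 40.0%, thus lay above those of genes with the same promoter mark. For H3K27ac in KO only, the members' 53.3% lay closer to the background.

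**Figure D3:**
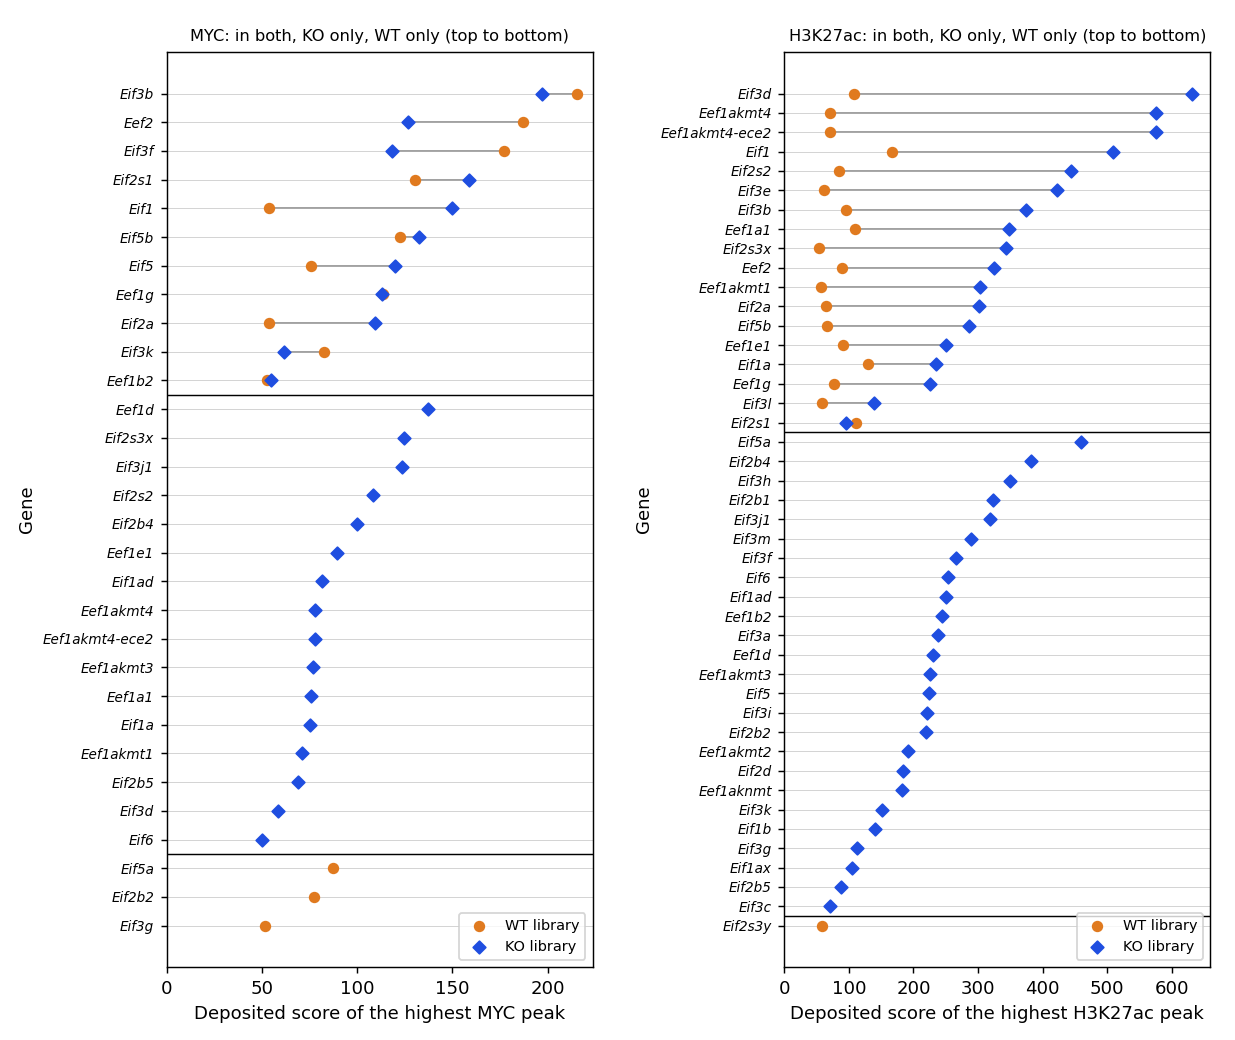
Deposited score (horizontal axis, scale not stated) of the highest MYC peak (left) and H3K27ac peak (right) at each factor gene with a peak, for the WT library (orange circles) and the KO library (blue diamonds). Genes with a peak in both libraries stand at the top, then KO-only and WT-only genes. At factor genes in both, the KO score of H3K27ac is the higher in 17 of 18 and that of MYC in 6 of 11. Over all genes with a peak in both, the KO score is the higher at 96.7% for H3K27ac and 73.5% for MYC.

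Most MYC peaks of the factor genes lay at the end where transcription starts. The strand is known for 37 members, from the promoter table of RefSeq for GRCm38.p6. Of those with a MYC peak, 11 of 13 in WT and 19 of 21 in KO had it at the start. H3K27ac had a peak at the start at 15 of 15 in WT and 34 of 34 in KO. For H3K4me3 these counts were 36 of 36 and 35 of 35. The place at the start was not counted over all genes, so it is not read as particular to MYC or to the members. Counting the Eef1akmt4 start once, the MYC peak covered the start base itself at 7 of 11 genes in WT and at 14 of 18 in KO. At 13 of 14 members in WT and 26 of 27 in KO, a MYC peak overlapped an H3K4me3 peak of the same genotype by at least 1 bp. Not all lay inside it: at Eif5a the WT MYC peak spanned -142 to 662 bp from the start and H3K4me3 412 to 4366 bp. At Eef2 the overlap was at the end near Dapk3. H3K27ac overlapped the MYC peaks at 5 of 14 in WT and 25 of 27 in KO, and the second ATAC library of the genotype at all 14 and all 27. The H3K27ac list held 10186 peaks with a median width of 332 bp in WT, and 20067 of 1235 bp in KO. Of all 48 members, 19 had H3K27ac in WT and 43 in KO. These overlaps were not counted over all genes, so they are not read as particular to MYC sites. An end of another gene lay within 1 kb of the MYC peak at 6 of 14 members in WT and 15 of 27 in KO, so those peaks cannot be given to the member alone. No KO-only MYC peak overlapped a WT peak. The class largely fixes this, since its genes have no WT peak within 1 kb of either end, and it was not counted over all genes. With a window of 2.5 kb, Eif3d, Eef1e1 and Eef1akmt3 had MYC in both genotypes.

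**Figure D4:**
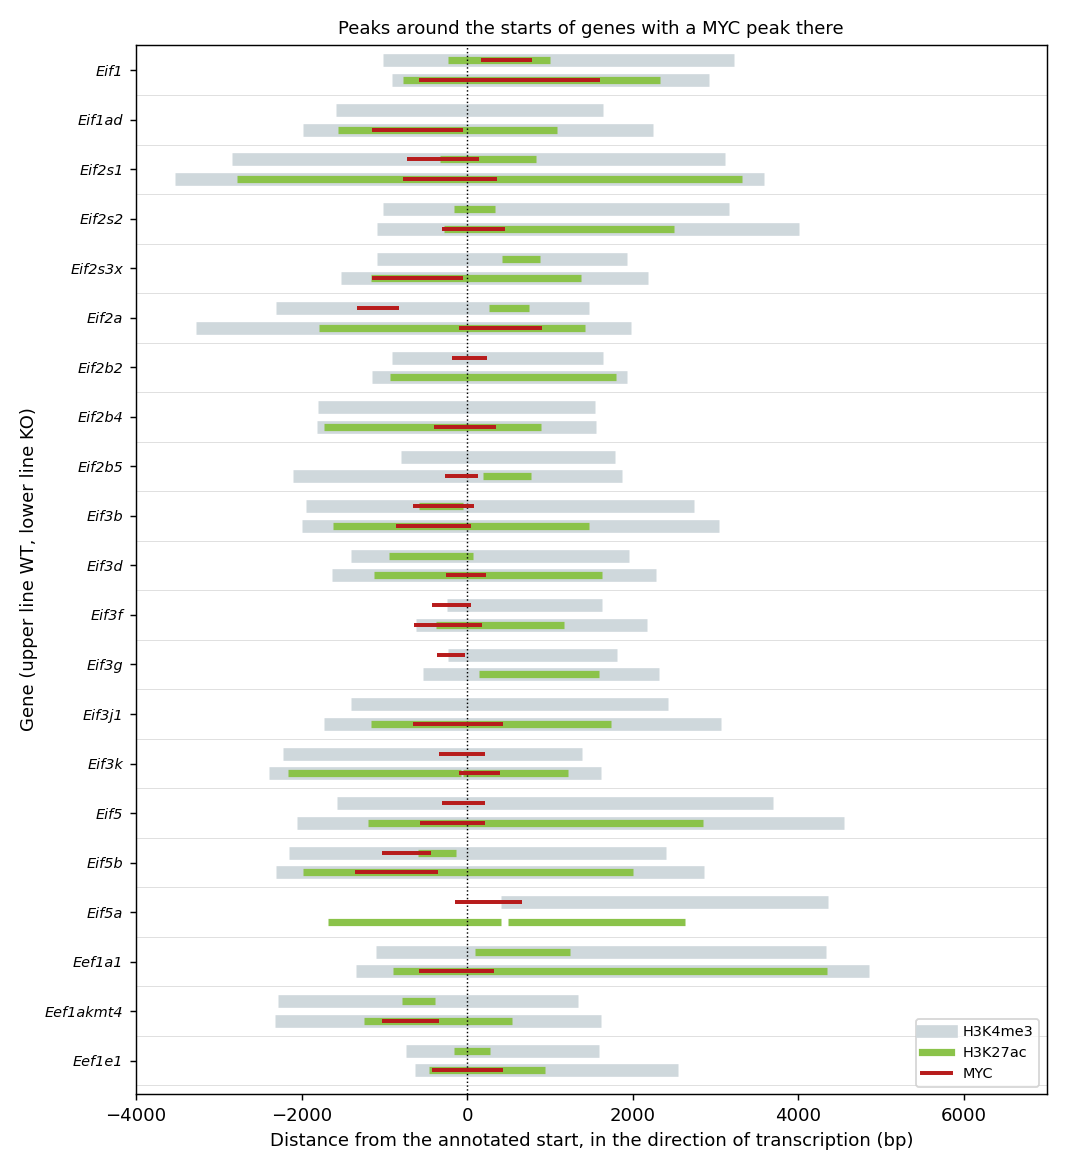
Extent of the H3K4me3 (grey), H3K27ac (green) and MYC (red) peaks around the annotated start (dotted line at 0) of the factor genes with a MYC peak at that end, in bp along the direction of transcription; the upper line of each gene is WT and the lower KO. MYC peaks lie near the start, mostly inside broader H3K4me3 peaks, and the green bars are longer in KO at each gene that has them in both.

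An E-box lay inside a MYC peak at the starts of 3 members. Eif3f and Eif3k, subunits of eIF3, had it inside the MYC peak of both genotypes, and Eif5a, which helps the ribosome past stalling sequences, in WT only. The 6 stretches below run from 100 bases before to 10 bases after an annotated start, on the strand of the gene, from RefSeq, GRCm38.p6. They set these 3 starts beside the start of Eef2, which holds an E-box and no MYC peak, of Eef1a1, whose MYC peak was in KO only, and of Eif3b, which had the highest MYC score of all members and no E-box. Capitals mark the E-box CACGTG and, at Eif3f, Eef1a1 and Eif3b, a pyrimidine tract at the start. Eif3b is not among the TOP class genes listed here. The stretch of Eif3f is chr7:108934315-108934424, plus strand; of Eif3k, chr7:28981879-28981988, minus strand; and of Eif5a, chr11:69921377-69921486, minus strand. The stretch of Eef2 is chr10:81176531-81176640, plus strand. That of Eef1a1 is chr9:78481715-78481824, minus strand, and that of Eif3b is chr5:140419205-140419314, plus strand.
Eif3f: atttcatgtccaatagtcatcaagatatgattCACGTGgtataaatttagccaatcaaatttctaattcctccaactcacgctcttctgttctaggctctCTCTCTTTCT
Eif3k: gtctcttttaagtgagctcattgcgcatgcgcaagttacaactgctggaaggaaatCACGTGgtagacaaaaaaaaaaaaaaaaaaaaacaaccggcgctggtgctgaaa
Eif5a: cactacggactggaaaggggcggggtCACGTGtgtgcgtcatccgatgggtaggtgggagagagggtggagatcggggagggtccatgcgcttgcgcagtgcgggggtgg
Eef2: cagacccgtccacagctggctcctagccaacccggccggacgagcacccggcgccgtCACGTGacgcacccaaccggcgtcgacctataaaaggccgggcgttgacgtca
Eef1a1: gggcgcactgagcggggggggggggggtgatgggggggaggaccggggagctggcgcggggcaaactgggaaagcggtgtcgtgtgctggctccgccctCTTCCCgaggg
Eif3b: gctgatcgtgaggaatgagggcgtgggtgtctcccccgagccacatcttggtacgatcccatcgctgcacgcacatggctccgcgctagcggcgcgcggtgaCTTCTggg

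In these stretches the E-box of Eif3f lies at -68 to -63, that of Eif3k at -44 to -39, that of Eif5a at -74 to -69 from its start at 69921386, and that of Eef2 at -43 to -38, with the start base counted as 1. Over the RefSeq windows of 250 bases before to 50 after a start, searched on both strands, CACGTG was found at 10 of the 37 members with a window and at 8.91% of all 17492 genes with one. Taking 1 window per gene and only genes with H3K4me3 in both genotypes, it was at 8 of 34 members (23.5%) and at 10.5% of genes. Counting the Eef1akmt4 start once, a MYC peak lay at the start of 3 of 9 members with an E-box and 8 of 27 without in WT, and of 3 of 9 and 15 of 27 in KO; these differences were not tested. Over all genes the shares were 13.5% with and 9.07% without the motif in WT, and 29.4% and 19.9% in KO. A match is a description of the sequence and not a bound site.

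Other promoter motifs were counted the same way, in 1 window per gene among genes with H3K4me3 in both genotypes. GGGCGG, the Sp1 core, was at 73.5% of members and 66.5% of genes. CCGGAA, the ETS core, was at 44.1% and 30.2%, and TATAAA, the sequence of the TATA box, at 14.7% and 6.66%. A match could lie anywhere in the window, on either strand. Member matches of TATAAA began at -177 (Eif3b), -157 (Eif2s1), -61 (Eif3f), -15 (Eef2) and, on the other strand, -197 (Eif2s3y). They are thus not read as working TATA boxes. CCAAT, the NF-Y site, was at 35.3% and 39.6%, and CACGCG, a variant E-box, at 14.7% and 18.8%. The median GC content was 60.7% in members and 61.3% in genes. Beside all genes with a window, CACGCG turned the other way, at 13.9% of members and 12.2% of genes, and TATAAA was at 13.9% and 13.3%, so the reading of both depended on the background. The shares beside all genes were 72.2% and 46.3% for GGGCGG, 41.7% and 19.1% for CCGGAA, and 33.3% and 39.2% for CCAAT. A tract of C followed by at least 4 pyrimidines, beginning within 5 bases of a start, was at 24.3% of members and 21.5% of all genes with a window, and at 2 of the 4 TOP class genes with a window, Eef1a1 and Eif3f.

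H3K27ac was called in both genotypes at 18 members, was KO only at 25 and WT only at 1, beside 13.6%, 25.5% and 0.772% of all genes. There were 10186 H3K27ac peaks in the WT list and 20067 in the KO list. With the KO list shortened to the length of the WT list, 23 members were KO only, 2 WT only and 17 in both, beside 18.3%, 1.77% and 12.6% of all genes, so unlike the MYC count this one moved little. At all 18 members with H3K27ac in both, the KO peak was the wider, with a median width of 475 bp in WT and 2936.5 bp in KO. The same was so at 99.9% of the 2983 genes with H3K27ac in both, so it was a feature of the lists as a whole. The KO score was the higher at 17 of 18 members and 96.7% of these genes. The exception was Eif2s1. HSC markers had H3K27ac at 1 of 12 in WT and 6 of 12 in KO, erythroid markers at 0 and 2 of 5, megakaryocyte markers at 0 and 2 of 4, B cell and stromal and endothelial markers each at 0 and 1 of 4, and myeloid and T and NK markers at 0 in both; their part in the result was not tested.

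At 7 members H3K27ac and MYC were both called in KO only, over H3K4me3 in both genotypes: Eif1ad, Eif2b4, Eif2b5, Eif3j1, Eif6, Eef1d and Eef1akmt3. Of the 16 members with MYC in KO only, the other 9 had H3K27ac in both. Of the 25 with H3K27ac in KO only, 11 had no MYC peak in either genotype. Over all genes, H3K27ac was KO only at 25.5% and MYC at 14.2%. The joint class was not counted over all genes, so the 7 are a list and are not read as an excess.

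H3K4me3 was called in both genotypes at 45 members, was WT only at 1 and KO only at none, beside 50.8%, 1.5% and 2.91% of all genes. The KO peak was the wider at 43 of 45 members (91.9% of all genes in both), with medians of 3058 and 3720 bp. Scores were higher in KO at 29 of 45 (60.3% of all genes). The median score of members, 535.5 in WT and 575.7 in KO, was above that of all genes with a peak, 388 and 400.4. Eif3j2 and Eef1a2 had no H3K4me3 peak, and Eif5a had one in WT only.

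ATAC peaks lay at 42 members in all 6 libraries, beside 39.5% of all genes. No member had a peak in both KO and neither WT library (0.0274% of all genes) or in both WT and neither KO library (0.0228%). Library 2 scored higher than library 1 at all 42 of these members in WT and in KO; in KO MycHet it did so at 32. The median member scores of libraries 1 and 2 were 145.5 and 862.6 (WT), 121.8 and 782.7 (KO) and 569.6 and 616.1 (KO MycHet). Within a library number the KO median was the lower in both, and the KO score was below the WT score at 27 of the 42 members in library 1 and 34 in library 2. The medians over all genes with a peak were also lower in KO, at 137.8 and 129.1 in library 1 and 629 and 543.5 in library 2. The 2 libraries of WT, and the 2 of KO, differed more from each other than WT did from KO within a library number, as did the list lengths, 17316 and 66571 peaks (WT) and 19189 and 72186 (KO). By sample number, both KO MycHet libraries stand with library 2 of WT and of KO, apart from library 1 of each. KO MycHet library 1 is thus not paired with library 1 of WT and KO. With 2 libraries against 2, an exact permutation test (two-sided) cannot give a p below 0.33.

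The factors eIF1 and eIF1A select the start codon, and Eif1ad was grouped with their genes by symbol. All 5 genes of the group had H3K4me3 and ATAC peaks in every library, 2 had H3K27ac in WT and 5 in KO, and 1 had MYC in WT and 3 in KO. For this and the later counts by complex, H3K27ac lay at 14.4% of all genes in WT and 39.1% in KO. MYC lay at 10.2% and 22.1%. Eif1 (chr11:100319949-100322099) had the highest KO scores of H3K27ac and MYC among the 5 genes. Its H3K27ac scores were 167 in WT and 508 in KO, its H3K4me3 scores 543 in WT and 828 in KO, and its MYC scores 53.6 in WT and 149.68 in KO. The WT MYC peak of Eif1 was among the weak ones of its list, above 15.6% of peaks, and the KO peak was above 88.9%. ATAC scores of Eif1 were 308 and 1509.73 (WT), 154 and 1258 (KO) and 879 and 1159.95 (KO MycHet).

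Eif1ad, an eIF1A-like domain protein, had KO-only peaks of H3K27ac (249.87) and MYC (81.5), the latter in a peak within 1 kb of an end of Banf1. H3K4me3 there scored 587 in WT and 552 in KO, and ATAC 89.7 and 708 (WT), 60.7 and 599.54 (KO) and 575 and 502 (KO MycHet). Promoter mark and open chromatin were thus present in both genotypes. Eif1a had MYC in KO only (score 75.2), in a peak within 1 kb of an end of Tmed7. Eif1ax on X and Eif1b, a close relative of Eif1, had H3K27ac in KO only (scores 105 and 140.29) and no MYC peak, although the Eif1b start window holds an E-box at -24 to -19.

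Among the subunits of eIF2, which carries the initiator tRNA, H3K27ac was present in both genotypes at the 3 genes outside the Y chromosome, and MYC lay at 1 gene in WT and 3 in KO. Eif2s1, the alpha subunit that the eIF2 kinases phosphorylate, had MYC scores of 131 in WT and 159 in KO, in a peak within 1 kb of an end of Atp6v1d. Its H3K27ac scores were 112 in WT and 95.6 in KO, with a peak of 1163 bp in WT and 6105 bp in KO, and its H3K4me3 scores 376 in WT and 213 in KO, with peaks of 5953 and 7111 bp. Eif2s1 thus had broader and lower peaks of both marks in the KO lists. ATAC scores there were 220.22 and 1152 (WT), 224 and 879.89 (KO) and 709 and 964 (KO MycHet).

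Eif2s2, the beta subunit, had H3K27ac scores of 83.9 in WT and 444 in KO and MYC in KO only, with a score of 108. At Eif2s2 H3K4me3 scored 583 in WT and 551 in KO and ATAC 121 and 1046 (WT), 88.3 and 688 (KO) and 459.73 and 473 (KO MycHet). The KO H3K27ac peak of Eif2s2 ranked above 96.5% of its list. The gamma subunit has 2 gene copies. Eif2s3x, on X, had H3K27ac scores of 54.2 in WT and 343 in KO, H3K4me3 scores of 678 in WT and 677 in KO and a KO-only MYC peak of 125, the second highest of the KO-only members. ATAC scores of Eif2s3x were 98.2 and 1073 (WT), 156 and 835 (KO) and 701 and 722 (KO MycHet).

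Eif2s3y, on Y, was the reverse for H3K27ac, and the only member with that mark in WT only (score 57.7, above 27.2% of the list). Its H3K4me3 scores were 329.94 in WT and 323 in KO, its ATAC scores 155 and 222 (WT), 129.98 and 303 (KO) and 54.01 and 394 (KO MycHet), and it had no MYC peak. Every list held peaks on Y, from 13 to 113, and the H3K27ac lists held 108 in WT and 31 in KO. With equal list lengths Eif2s1 also had H3K27ac in WT only. With scores of at least 100, Eif2s1 was the only such member, and Eif2s3y was not. Eif2s3x and Eif2s3y are close in sequence, and the sources used here do not say how reads that fit both were placed.

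Eif2a and Eif2d encode factors that can bring tRNA to the ribosome without eIF2. Eif2a had the highest H3K4me3 score of all members in WT (836 in WT and 560.0 in KO) and H3K27ac scores of 64.4 in WT and 301 in KO. Its MYC scores were 53.9 in WT and 109 in KO, but the 2 peaks did not overlap, with the middle of the WT peak at -1075 bp from the start and that of the KO peak at 402 bp. The WT and KO peaks overlapped at the other 10 members with MYC in both. An end of Serp1 lay within 1 kb of both MYC peaks of Eif2a. ATAC scores of Eif2a were 227 and 1343 (WT), 227 and 1410.34 (KO) and 933 and 1186 (KO MycHet). Eif2d had H3K27ac in KO only (183) and no MYC peak.

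The eIF2B genes, whose complex recharges eIF2, had no H3K27ac peak in WT and 4 of 5 in KO. H3K4me3 lay at all 5 in both genotypes. MYC lay at Eif2b4 and Eif2b5 in KO only and at Eif2b2 in WT only. Eif2b4 had the highest H3K27ac score of the complex (381), a KO MYC score of 99.9, H3K4me3 scores of 503 in WT and 789 in KO and ATAC scores of 180.03 and 1152 (WT), 102 and 991 (KO) and 683 and 885 (KO MycHet). An end of Snx17 lay within 1 kb of the H3K27ac and MYC peaks, so they may belong to either gene. Eif2b2 had H3K27ac in KO only (219.55) and a WT MYC peak of 77.5 that covered the start. H3K4me3 scores of Eif2b2 were 475 in WT and 521 in KO, and ATAC scores 175 and 909.89 (WT), 122 and 760.17 (KO) and 616 and 591 (KO MycHet).

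Eif2b5, the catalytic subunit, had a KO-only MYC peak of 68.8 and a KO-only H3K27ac peak of 87.7, which was 582 bp wide, the narrowest of the members in KO. Eif2b1 had H3K27ac of 322 in KO, H3K4me3 of 806 in WT and 898 in KO, the latter the highest of all members in KO, and no MYC peak. Eif2b3 had neither H3K27ac nor MYC. Its H3K4me3 scores were 491 in WT and 469 in KO and its ATAC scores 99.96 and 569 (WT), 116 and 503 (KO) and 367 and 409 (KO MycHet), so its promoter was marked and open in both genotypes.

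The 14 genes of eIF3, the largest initiation factor, had H3K27ac at 4 in WT and 13 in KO, and MYC at 4 and 5. In the octamer of core subunits (Eif3a, Eif3c, Eif3e, Eif3f, Eif3h, Eif3k, Eif3l and Eif3m), H3K27ac lay at 2 of 8 in WT and 8 of 8 in KO, and MYC at Eif3f and Eif3k in both genotypes. In the peripheral subunits (Eif3b, Eif3d, Eif3g, Eif3i, Eif3j1 and Eif3j2), H3K27ac lay at 2 of 6 in WT and 5 of 6 in KO. MYC lay at Eif3b in both, at Eif3d and Eif3j1 in KO only and at Eif3g in WT only. The 5 members without an ATAC peak in 1 or 2 of the 6 libraries, Eif3c, Eif3g, Eif3i, Eif3j2 and Eif3l, were all eIF3 genes. The missing peaks were all in library 1 of WT or of KO, which had the short lists.

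Eif3b, the scaffold of the peripheral module, had the strongest MYC peaks of all members in both genotypes, 215 in WT and 197 in KO, above 96.6% and 94.2% of their lists. H3K27ac scores of Eif3b were 95.1 in WT and 374 in KO, H3K4me3 scores 464 in WT and 572 in KO, and ATAC scores 173 and 863 (WT), 103 and 422 (KO) and 448 and 492 (KO MycHet). No other gene had an end within 1 kb of its MYC peaks. Eif3f had MYC scores of 177 in WT and 119 in KO, the WT peak above 94.5% of its list. Its H3K27ac was in KO only (265), with H3K4me3 of 673 in WT and 813 in KO and ATAC of 283 and 1079 (WT), 190.21 and 1123 (KO) and 753 and 962 (KO MycHet). MYC at Eif3f was thus called in WT without an H3K27ac peak.

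The same was so at Eif3k, where MYC scored 82.8 in WT and 61.6 in KO and H3K27ac was in KO only, at 152. H3K4me3 at Eif3k scored 530.45 in WT and 546 in KO and ATAC 135 and 778 (WT), 91.3 and 450.27 (KO) and 476 and 458 (KO MycHet). An end of Map4k1 lay within 1 kb of these MYC peaks. Eif3d, the subunit that can bind the mRNA cap, had the highest KO H3K27ac score of all members, with 108 in WT and 631 in KO, and a weak KO-only MYC peak of 58.3. H3K4me3 scored 795 in WT and 873 in KO at Eif3d, and ATAC 119 and 739.69 (WT), 78.7 and 603 (KO) and 569.62 and 663 (KO MycHet).

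Eif3j1 encodes the subunit that sits in the mRNA entry channel. It had KO-only peaks of MYC (123) and H3K27ac (319), H3K4me3 scores of 718 in WT and 619 in KO and ATAC scores of 312 and 1178 (WT), 194 and 1072 (KO) and 816 and 915 (KO MycHet). Its copy Eif3j2 had no peak of H3K4me3, H3K27ac or MYC. ATAC peaks lay at Eif3j2 in 4 libraries, with 149 in WT library 2, 313 in KO library 2, and 167 and 170.41 in KO MycHet. The 2 genes are close copies, and reads that fit both could be lost or split between them.

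Eif3a, the largest subunit, had H3K27ac in KO only (238) and no MYC peak. Its H3K4me3 scores were 383 in WT and 119 in KO, and the peak was 5835 bp wide in WT and 8019 bp in KO, the widest of the members. ATAC scores of Eif3a were 199 and 1212 (WT), 72.3 and 1035 (KO) and 752 and 846 (KO MycHet). Eif3g, the RNA-binding subunit, had MYC in WT only, at 51.7, above 8.32% of the list, and H3K27ac in KO only, at 112. H3K4me3 at Eif3g scored 574 in WT and 623 in KO. ATAC peaks were absent at Eif3g in library 1 of WT and of KO and scored 264 in WT library 2, 294 in KO library 2 and 187 and 308 in KO MycHet.

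The remaining eIF3 genes had no MYC peak. Eif3e and Eif3l had H3K27ac in both genotypes (61.7 in WT and 422 in KO for Eif3e, 58.2 in WT and 138 in KO for Eif3l). Eif3c, Eif3h, Eif3i and Eif3m had it in KO only, with scores from 70.1 at Eif3c to 350.24 at Eif3h.

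Eif5, which makes eIF2 hydrolyse its GTP at the start codon, and Eif5b, which joins the large subunit, had MYC in both genotypes. MYC scored 75.6 in WT and 119.96 in KO at Eif5 and 122 in WT and 132 in KO at Eif5b, whose peaks lay within 1 kb of an end of Txndc9. Eif5 had H3K27ac in KO only (224). Its H3K4me3 scores were 335 in WT and 197 in KO, with peaks of 5264 and 6612 bp. A wide peak with a lower KO score was also found at Eif3a, Eif2s1 and Eef1a1, the last with 5437 and 6197 bp. This was not particular to these genes: the KO peak was the wider at 43 of 45 members and its score the higher at only 29. ATAC scores of Eif5 were 243 and 1672 (WT), 149.88 and 1375 (KO) and 1116 and 1168 (KO MycHet), the WT library 2 score being the highest ATAC score of all members. Eif5b had H3K27ac of 65.6 in WT and 287 in KO, H3K4me3 of 502 in WT and 503 in KO and ATAC of 123 and 1107 (WT), 118 and 998 (KO) and 676 and 788 (KO MycHet).

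Eif5a (chr11:69916712-69921958, minus strand) encodes the factor that carries the amino acid hypusine. It was the only member whose H3K4me3 was called in WT only. WT H3K4me3 peaks lay at 69917592 to 69921546 (score 455) and at 69913118 to 69915883 (score 140.18), and the KO list had no peak between those ending at 69903317 and starting at 69934022. The neighbouring gene Gps2 lay in the same gap. Yet H3K27ac was called at Eif5a in KO, from 69919323 to 69921470, with a score of 459. ATAC peaks were present in all 6 libraries, with scores of 208 and 843 (WT), 261 and 786 (KO) and 591 and 734 (KO MycHet). The chromatin at Eif5a was thus open and acetylated in the KO libraries where the KO H3K4me3 list had no peak, and no replicate of that library could be checked.

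The MYC and H3K27ac classes of Eif5a depended on the window. The WT MYC peak lay at 69921296 to 69922100 (score 87.1), over the outermost start. A KO MYC peak of 63.6 lay inside the gene at 69918940 to 69920631, and a WT H3K27ac peak of 93.2 at 69919629 to 69920454, both more than 1 kb from the gene ends. RefSeq lists starts of Eif5a down to 69920630, and counted at every annotated start Eif5a had both marks in both genotypes. Eif5a2, its second copy, had no H3K27ac or MYC peak. H3K4me3 scores of Eif5a2 were 77.9 in WT and 104 in KO, the WT score being the lowest of all members, and ATAC scores were 222 and 929.69 (WT), 190.41 and 814 (KO) and 532 and 593 (KO MycHet), in the range of the other members.

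Eif6 encodes the factor that keeps the ribosomal subunits apart. Both ends of Eif6 had peaks, and the lower end lies within 1 kb of an end of Mmp24. At the upper end H3K4me3 scored 626 in WT and 519 in KO, and H3K27ac was in KO only, at 155.68. ATAC scores at the upper end were 86.06 and 836.3 (WT), 71.94 and 672.07 (KO) and 431.31 and 574.37 (KO MycHet). At the lower end H3K27ac was in KO only, at 254, and H3K4me3 scored 408.27 in WT and 473.74 in KO. The KO-only MYC peak, at the lower end alone, was the weakest of the members, 50.3, above 0.988% of the list. ATAC scores at the lower end were 96.03 and 867 (WT), 203 and 879.95 (KO) and 623 and 638 (KO MycHet).

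Of the 2 genes for eEF1A, one of the most abundant proteins of the cell, Eef1a1 (chr9:78478453-78481724) was marked and Eef1a2 was not. Eef1a1 had H3K27ac of 109 in WT and 348 in KO, H3K4me3 of 532 in WT and 500.3 in KO, and MYC in KO only, at 75.6, over its start. ATAC scores of Eef1a1 were 174 and 1035 (WT), 128 and 1252 (KO) and 685 and 812 (KO MycHet).

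The eEF1B genes, which encode the exchange factor of eEF1A, had MYC at 2 of 3 in WT and 3 of 3 in KO, and H3K27ac at 1 and 3. Eef1g had MYC scores of 114 in WT and 113 in KO, nearly equal, in peaks within 1 kb of an end of Tut1. Its H3K27ac scores were 77.7 in WT and 225 in KO, its H3K4me3 scores 799 in WT and 586 in KO and its ATAC scores 249 and 1206 (WT), 139 and 1154 (KO) and 726 and 919.8 (KO MycHet). Eef1d had the highest MYC score of the KO-only members, 137, in a peak within 1 kb of an end of Tigd5. H3K27ac at Eef1d was in KO only (230.41), with H3K4me3 of 476 in WT and 529 in KO and ATAC of 149 and 895 (WT), 162 and 812 (KO) and 624 and 609 (KO MycHet).

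Eef1b2 had H3K27ac in KO only, at 245, in a peak within 1 kb of an end of Ndufs1. Its MYC peaks were weak, 52.5 in WT and 54.9 in KO, and lay at the end away from the start. H3K4me3 scored 283 in WT and 293 in KO at Eef1b2 and ATAC 106 and 748 (WT), 119 and 523 (KO) and 556 and 661 (KO MycHet). The ATAC score of KO library 1 is that of the end away from the start, and its peak at the start of Eef1b2 scored 82.55. Eef2 also had its MYC peaks away from the start. They scored 187 in WT and 127 in KO and lay at 81182207 to 81183139 in WT and 81182300 to 81183864 in KO, within 1 kb of an end of Dapk3. The start of Eef2 had H3K27ac of 89.1 in WT and 324 in KO and H3K4me3 of 731 in WT and 789 in KO. ATAC at the Eef2 start scored 54.51 and 276.42 in the WT libraries, 229.31 in KO library 2, and 174.75 and 315.59 in KO MycHet, and KO library 1 had no peak there. The higher ATAC scores of Eef2 lay at the end near Dapk3, with 146 and 1131 (WT), 135 and 1081 (KO) and 678 and 1001 (KO MycHet).

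The 7 other genes of the group encode methyltransferases of eEF1A, with the read-through Eef1akmt4-ece2 among them, and Eef1e1, a scaffold of the multi-tRNA synthetase complex. None had MYC in WT and 5 had it in KO, and H3K27ac lay at 4 and 7. Eef1e1 had H3K27ac of 91.3 in WT and 249.66 in KO, KO MYC of 89.6, H3K4me3 of 592 in WT and 825 in KO and ATAC of 154 and 943 (WT), 171 and 1030.44 (KO) and 677 and 888 (KO MycHet). Eef1akmt4 had H3K27ac of 70.5 in WT and 575 in KO, the second highest KO score of the members, and KO MYC of 77.6, in a peak within 1 kb of an end of Alg3. H3K4me3 at Eef1akmt4 scored 535 in WT and 724 in KO and ATAC 110.05 and 856 (WT), 114 and 736 (KO) and 468 and 403 (KO MycHet). Eef1akmt1 and Eef1akmt3 had KO-only MYC peaks of 70.8 and 76.9. Eef1akmt2 and Eef1aknmt had none, with H3K27ac in KO only.

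The 8 members of the TOP class (Eef1a1, Eef1b2, Eef1d, Eef1g, Eef2, Eif3e, Eif3f and Eif3h) cut across the complexes. H3K27ac lay at 4 in WT and 8 in KO, MYC at 4 and 6, and H3K4me3 and ATAC at all 8 in every library. Over all genes H3K27ac lay at 14.4% in WT and 39.1% in KO, and MYC at 10.2% and 22.1%. H3K4me3 lay at 52.3% and 53.7% of all genes, and ATAC at 44.1% to 65.4% by library. The MYC peaks of Eef1b2 and Eef2 lay at the end away from the start. The rise is thus not read as particular to the TOP class.

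Genes that act on or beside these factors were counted in the same windows. Over all genes MYC lay at 10.2% in WT and 22.1% in KO, and H3K27ac at 14.4% and 39.1%. Of the 7 genes for diphthamide, the modified residue of eEF2, MYC lay at 1 in WT and 5 in KO, and H3K27ac at 3 and 7. Dhps and Dohh, which make the hypusine of eIF5A, had MYC in both genotypes. The 6 termination and recycling genes had MYC at 2 and 3 and H3K27ac at 1 and 5. Of the 8 kinases, methyltransferase and phosphatase subunits that act on eIF2 and eEF2, MYC lay at 4 and 5 and H3K27ac at 3 and 7. The 6 mitochondrial factors had MYC at 1 and 2 and H3K27ac at 0 and 4, and the 3 reinitiation genes MYC at 1 and 0 and H3K27ac at 0 and 2.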

How the data were processed

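Peak lists of 12 libraries were used. The authors deposited 1 list per library, with a position, a MACS-style name and a score for each peak, so peaks were called per sample. The build mm10 and the tool CASAVA come from the submitters' processing notes. Aligner, caller settings and any input control are not stated in the sources used here. Gene ends (21887 protein-coding genes) and promoter windows came from RefSeq tables of GRCm38.p6, the same assembly. The 48 members, the complexes and the other lists were chosen with earlier results of these data known. A peak counted for a gene when it shared at least 1 bp with the 1000 bp on either side of either end. A gene was KO only with a KO peak and no WT peak there, and WT only in the reverse case. All members may be named; values in every library were given for those with the highest MYC scores of each class, those lacking a mark, 8 core genes and the highest H3K27ac score of each complex. Counts were tested on simulated peaks and against bedtools 2.31.1 (Python 3.11.15, pandas 2.3.3). Alternatives were other windows, overlaps, score limits and list lengths.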

Additional observations from a re-analysis of the deposited data

How the results depend on the processing

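Of 70 values under other settings, 61 were within 1.5 times the reported count. With scores of at least 100, MYC was at 7 members in KO only, 0 in WT only and 6 in both, since this leaves fewer peaks. Over all genes these MYC classes then held 6.1%, 0.79% and 1.98%. ATAC was then at 26 members in all 6 libraries, beside 25.3% of all genes. H3K27ac was at 4 in both, against 18 without the limit, and its KO-only count rose from 25 to 36. Over all genes H3K27ac was in both at 3.84%, against 13.6% without the limit. It was KO only at 27.5% of all genes, against 25.5%. The H3K27ac classes thus depended on the score limit. With equal list lengths, MYC was at 6 in KO only and 5 in WT only, and H3K27ac at 2 in WT only, as it also was with a window of 2.5 kb. Over all genes, equal lengths gave 5.66% and 4.5% for these MYC classes. H3K27ac was WT only at 1.77% of all genes with equal lengths and at 1.32% with the 2.5 kb window. Leaving out each ATAC library in turn gave 42 to 43 members with a peak in all the others. Every annotated start and the count without Eef1akmt4-ece2 were chosen after seeing the data, and each gave counts within 1.5 times. No paired analysis was possible because each ChIP target has 1 library per genotype and the results come from no test. Without read counts, a peak missing from a short list and a peak too weak for the depth cannot be told apart.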
